A study of Rattus norvegicus with 6 samples.

Results

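The proteasome is the barrel-shaped protease that degrades proteins tagged with ubiquitin, and its subunit genes were followed here in rat gastrocnemius muscle across 3 diets. Members were all genes whose symbol begins with Psma, Psmb, Psmc, Psmd or Psme followed by a number, measured by a probe set assigned to that gene alone. Of the 14506 genes compared, 44 met this rule, on 51 such probe sets. For the 7 symbols with several probe sets, the set with the highest average level was kept. Of the 44, 42 encode subunits or dedicated factors of the particle: 15 of the core, 22 of the regulatory caps and activators, and 5 of the immune form. The other 2, Psmc3ip and Psme3ip1, only share the start of the symbol, since they are named as partners of PSMC3 and PSME3, and they are left out of the subunit counts.

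The rats were male Sprague-Dawley animals made obese by diet, 12 weeks of age at the start and 20 weeks of age after the 8 weeks of feeding. All 3 groups ate freely from high-fat, high-sucrose diets of 4.6 kcal per gram with 10% of the energy as protein. The casein group, the control, received casein alone. The dairy group received skim milk powder as its protein source, and the leucine group received 7.1% of energy as casein with 2.9% as leucine. The design gives 4 rats per diet while 2 arrays per diet were analysed, and the labels leave unsaid whether each array holds RNA of a different rat. The p-values therefore measure only the spread between these samples, which may be technical. The tissue label is gastrocnemius muscle on all 6 arrays, although the storage and extraction texts mention liver. The arrays were Affymetrix Rat Gene 1.0 ST arrays, and every level is a log2 signal in which a difference of 1 is a 2-fold difference.

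The catalytic core of the proteasome is a stack of rings. Alpha subunits form the outer rings and the gate, and beta subunits form the inner rings, where PSMB5, PSMB6 and PSMB7 carry the active sites. The 19S cap binds ubiquitin chains, removes them, and unfolds and feeds the substrate through its ring of ATPases. Under interferon, PSMB8, PSMB9 and PSMB10 replace the standard catalytic subunits in newly built particles, and PSME1 and PSME2 form the PA28 activator. This immunoproteasome is best known for making peptides for class I antigen presentation. In muscle, the ubiquitin-proteasome system degrades contractile proteins, and many of its genes are induced together in several forms of wasting.

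Promoters of the 5 immune genes and of 2 standard partners are shown because these genes are described together below, beside the interferon genes and Nfe2l1. Each line gives the 250 bases before the annotated start in RefSeq's GRCr8 assembly, 5′ to 3′ along the gene's own strand. Capitals mark matches to the interferon-gamma activated site GAS (TTCNNNGAA), the IRF core of interferon regulatory factors (GAAA repeated after a gap of 2 bases), or the core TGACNNNGC of the NFE2L1 and NFE2L2 site. Both strands were searched. The windows lie at chr20:4657032-4657281 on the minus strand for Psmb8, chr20:4668750-4668999 on the plus strand for Psmb9, and chr19:50743293-50743542 on the minus strand for Psmb10. Those of the activator genes lie at chr15:33038721-33038970 on the plus strand for Psme1 and chr15:33052752-33053001 on the minus strand for Psme2. Those of the standard partners lie at chr15:32047380-32047629 on the minus strand for Psmb5 and chr10:55737638-55737887 on the plus strand for Psmb6.
Psmb8: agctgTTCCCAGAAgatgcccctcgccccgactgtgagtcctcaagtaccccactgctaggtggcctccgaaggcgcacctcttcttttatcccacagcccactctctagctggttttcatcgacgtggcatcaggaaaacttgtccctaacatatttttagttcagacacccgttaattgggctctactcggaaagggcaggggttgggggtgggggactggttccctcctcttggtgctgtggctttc
Psmb9: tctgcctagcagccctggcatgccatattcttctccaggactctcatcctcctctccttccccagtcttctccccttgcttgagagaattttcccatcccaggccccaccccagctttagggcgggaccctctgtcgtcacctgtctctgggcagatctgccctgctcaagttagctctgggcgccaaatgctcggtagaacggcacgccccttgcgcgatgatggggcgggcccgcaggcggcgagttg
Psmb10: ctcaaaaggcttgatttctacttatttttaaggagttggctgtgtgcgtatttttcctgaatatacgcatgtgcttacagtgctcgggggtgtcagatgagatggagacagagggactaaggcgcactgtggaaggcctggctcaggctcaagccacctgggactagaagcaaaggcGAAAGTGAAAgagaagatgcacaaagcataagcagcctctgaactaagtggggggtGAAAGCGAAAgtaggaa
Psme1: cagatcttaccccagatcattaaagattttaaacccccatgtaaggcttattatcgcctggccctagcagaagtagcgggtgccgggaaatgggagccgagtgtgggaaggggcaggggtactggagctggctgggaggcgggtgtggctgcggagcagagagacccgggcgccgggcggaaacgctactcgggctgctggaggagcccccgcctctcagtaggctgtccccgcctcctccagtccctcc
Psme2: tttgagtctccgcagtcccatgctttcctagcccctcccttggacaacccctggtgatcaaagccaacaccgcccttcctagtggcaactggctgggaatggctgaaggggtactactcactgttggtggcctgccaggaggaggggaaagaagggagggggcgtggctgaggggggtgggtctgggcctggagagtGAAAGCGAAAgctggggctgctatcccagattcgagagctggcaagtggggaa
Psmb5: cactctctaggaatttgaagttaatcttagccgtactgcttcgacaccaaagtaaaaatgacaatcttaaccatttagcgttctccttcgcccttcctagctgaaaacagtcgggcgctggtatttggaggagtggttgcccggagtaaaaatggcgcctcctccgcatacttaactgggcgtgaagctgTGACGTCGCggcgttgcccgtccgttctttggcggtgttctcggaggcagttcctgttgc
Psmb6: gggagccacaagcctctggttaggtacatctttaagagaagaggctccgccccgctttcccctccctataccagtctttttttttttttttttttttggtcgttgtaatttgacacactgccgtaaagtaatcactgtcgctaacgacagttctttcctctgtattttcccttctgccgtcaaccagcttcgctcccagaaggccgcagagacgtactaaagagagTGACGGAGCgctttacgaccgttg

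Matches were few. Psmb8 held a GAS that began 245 bases before the start, Psme2 held an interferon factor core at 53, and Psmb10 held 2 such cores at 73 and 17. Psmb9 and Psme1 held none of the 3 motifs, which says only that these letters are not in this window. The NFE2L core was found in 0 of the 5 immune promoters and in 3 of 12 core promoters, those of Psmb2, Psmb5 (60 bases before the start) and Psmb6 (24 bases), and in 3 of 19 regulatory promoters. The interferon motifs were not limited to immune genes: the IRF core was also in 2 of 12 core promoters (Psma4 and Psmb3) and in 1 of 19 regulatory ones, and the GAS in 3 of 19 regulatory ones. Among all 33469 RefSeq promoters of the same length, 7.67% held the GAS, 3.41% the interferon factor core and 10.1% the NFE2L core. RefSeq promoters were matched for 38 of the 44 members. The starts of Psmb9 and Tap1, which are divergent neighbours in the class II region, lay 457 bases apart, and their windows of 250 bases before to 50 after the start shared 44 bases. A match is a description of letters and not of a bound site.

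Almost all subunits read above the middle of the array, taken as the median of all 29214 probe sets, 13581 of them without a gene entry. In all, 42 of the 44 members lay above the median probe set of the array on all 6 arrays. The exceptions were Psmb9, above it on 2 arrays, and Psmb11, the thymus-specific beta subunit, which read 2.40 on every array. Psmb8 (4.12 to 4.93), Psmb10 (4.18 to 4.34) and Psmd10 (4.54 to 4.62) were dim as well. Some genes had exactly the same value on several arrays, among them Psmd10 on 5, Psmc1 and Psmc4 on 4, and Psma4, Psmb2 and Psmb4 on 3. A spread of 0 within a diet is therefore not a measure of precision. All 12 fast-fibre markers lay above the array median on all arrays, while 8 of 12 measured lymphocyte markers, among them Cd3d, Cd3e and Ms4a1, lay below it on all 6. Casein array 2 stood apart: its mean correlation with the other arrays was 0.974 against 0.985 to 0.988 for the rest. It had 177 genes more than 2-fold higher, and 64 more than 2-fold lower, than on any other array. The summed log2 level of 9 slow-fibre markers was 55.7 against 88.3 to 93.4 elsewhere. The summed level of 12 hepatocyte markers was 78.7 there and 39.2 to 60.6 elsewhere. Without that array the sign of the difference turned for 7 of the 44 members for leucine against casein. For dairy against casein it turned for 13 of the 44. Leaving out other arrays turned signs as well. Without casein array 1 the sign turned for 9 and 10 of the 44 in these comparisons. Without dairy array 1 it turned for 12 for dairy against casein and for 12 for leucine against dairy. Values without casein array 2 are given beside many, but not all, of the genes named below. In a piece of muscle, fewer cells of a type and less RNA per cell cannot be told apart.

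**Figure D1:**
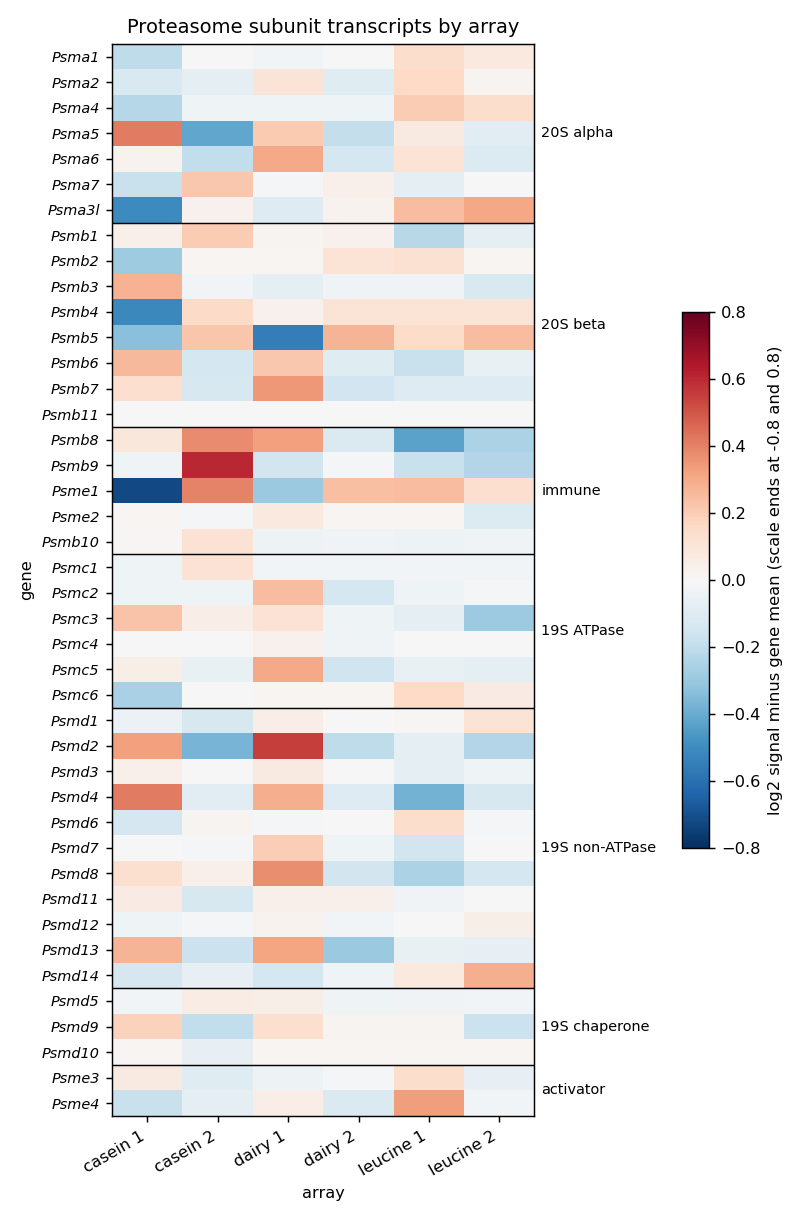
Heat map of the 42 subunit genes (rows, grouped by class) on the 6 arrays (columns). Colour is the log2 level minus the mean of that gene over the 6 arrays, from blue (lower) to red (higher), and Psme1 shows the widest span, 1.12.

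The proteasome transcripts as a whole differed little between diets. With limma and Benjamini-Hochberg adjustment over all 14506 genes, 0 of the 42 subunits passed an adjusted p of 0.05 in any of the 3 comparisons. The share of all genes past it was likewise 0.0% for leucine against casein, 0.0% for dairy against casein and 0.0% for leucine against dairy. At an unadjusted limma p under 0.05 there were 4 subunits for leucine against casein (9.52%, beside 9.61% of all genes), 0 for dairy against casein (beside 4.8%) and 1 for leucine against dairy (2.38%, beside 5.7%). These shares were at or below the background. No subunit differed by more than 1.5-fold in any comparison. The median size of the difference, without its sign, was 0.13, 0.085 and 0.093 for the subunits in that order, beside 0.14, 0.12 and 0.11 for all genes.

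The precision set a bound on what could have been missed. The 95% intervals of the model extended to either side of the estimate by a median of 0.33 on the log2 scale, from 0.15 to 1.15. For leucine against casein the whole interval lay within 2-fold for 35 of the 42 subunits, and for each of the other comparisons for 39. The intervals that reached past 2-fold belonged to Psmb5, Psme1 and Psmd2 in every comparison, and also to Psma3l, Psmb8, Psmb9 and Psmd4 for leucine against casein. For these genes a 2-fold difference lies inside the error.

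Over the 6 arrays, the gap between the highest and the lowest value of a gene had a median of 0.43 in the core (highest 0.83), 0.37 in the regulatory class (highest 0.92) and 0.81 in the immune class (highest 1.12), beside 0.44 over all genes. It was above 0.5 for 4 of 15 core, 6 of 22 regulatory and 3 of 5 immune genes, beside 6057 of all 14506 genes.

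The 3 classes of subunit had medians near those of all genes. For leucine against casein the medians were 0.08 for the core (8 higher, 6 lower), −0.02 for the regulatory class (10 higher, 11 lower) and −0.10 for the immune class (1 higher, 4 lower), beside 0.0 for all genes. The immune median was −0.03 (2 higher, 3 lower) after centring and −0.20 (0 higher, 5 lower) without casein array 1. For dairy against casein they were 0.09, 0.03 and −0.10, beside 0.0028 for all genes. For leucine against dairy they were 0.0, −0.04 and −0.10, beside 0.0. The directions depended on the scaling of the arrays. Over the 42 subunits, dairy against casein gave 27 higher and 14 lower as deposited, 11 and 31 after quantile normalization, and 33 and 9 after centring each array on its median. Leucine against casein gave 19 and 21, 15 and 27, and 27 and 15 in that order, and leucine against dairy gave 15 and 24, 22 and 20, and 20 and 22. Centring moved the median of all genes by up to 0.06. Where a scaling turned the sign for a gene named below, this is said beside its value.

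**Figure D2:**
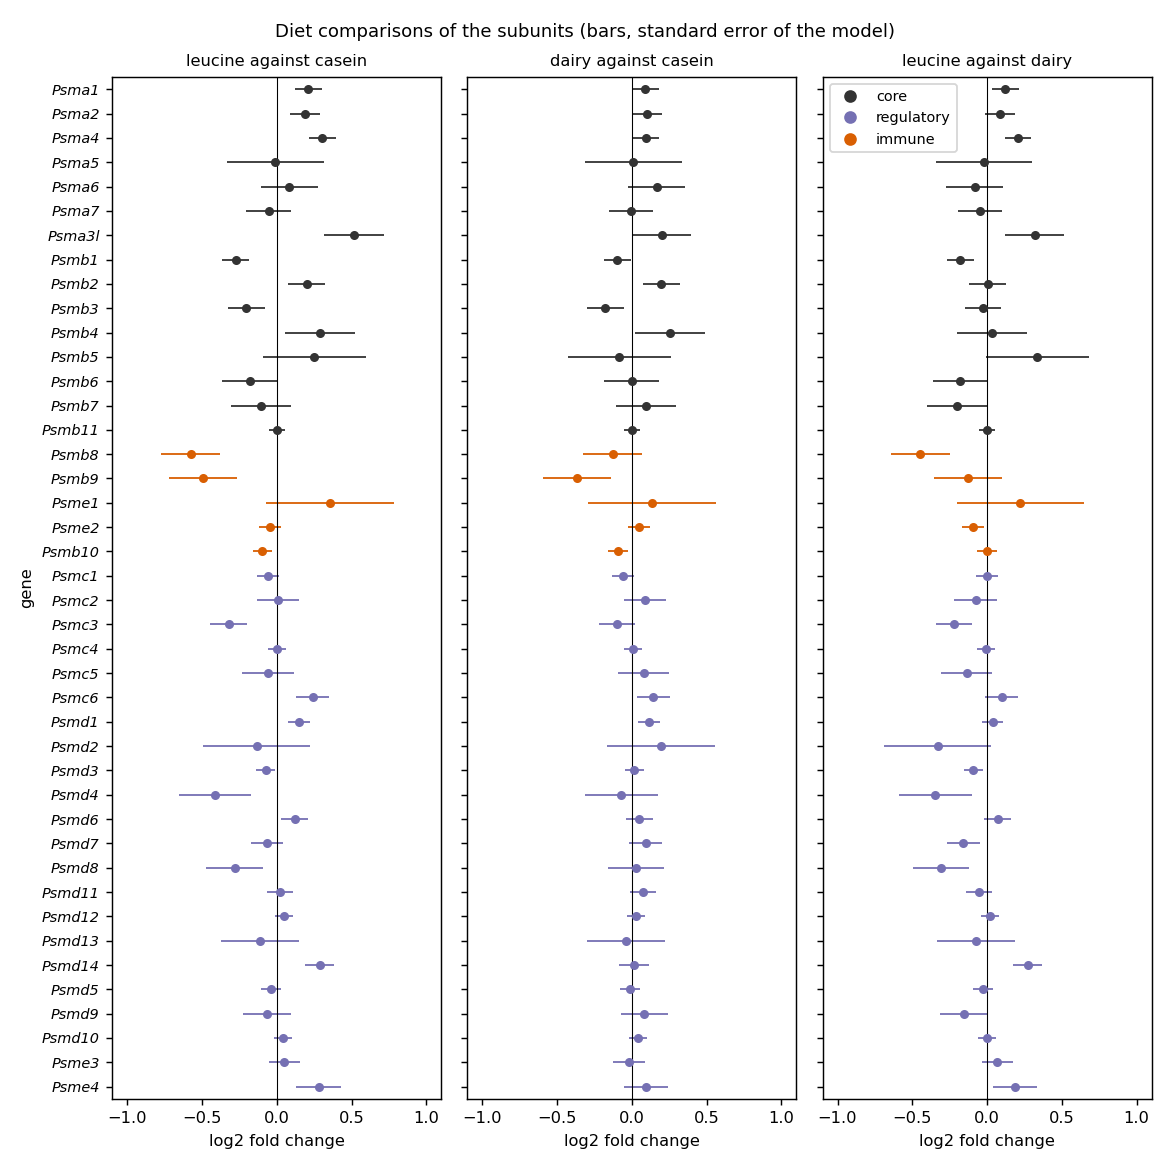
Log2 fold change (horizontal axis) of each subunit in the 3 diet comparisons, as points coloured by class, with the standard error of the model as bars (2 arrays against 2). Most points lie near 0, and the longest bars belong to Psme1, Psmd2 and Psmb5.

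Among the alpha subunits, which gate the core, 5 of 7 had higher means with leucine than with casein, and the median difference was 0.19. Psma4 read 7.97 and 8.17 with casein, 8.17 and 8.17 with dairy, and 8.41 and 8.35 with leucine. Both leucine arrays lay above all 4 others. The difference from casein was 0.31 ± 0.09 (SE, n = 2 arrays against 2), with a limma adjusted p of 0.433 and an unadjusted p under 0.05. Against dairy it was 0.21 ± 0.09, with a limma adjusted p of 0.903.

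Psma3l, an alpha 3 gene related to Psma3, gave the widest difference in the core. Its levels were 7.68 and 8.23 with casein, 8.09 and 8.22 with dairy, and 8.44 and 8.50 with leucine. The leucine arrays were again the highest, and casein array 1 lay well below casein array 2. The difference between leucine and casein was 0.52 ± 0.20 (limma adjusted p = 0.535), and it ranged from 0.24 without casein array 1 to 0.79 without casein array 2. Probes of near-identical copies can read both genes, so the share of each is uncertain. Psma1 followed the same order, with 8.02 and 8.23 with casein, 8.20 and 8.23 with dairy, and 8.37 and 8.31 with leucine, and its difference from casein was 0.21 ± 0.09 (limma adjusted p = 0.567). Casein array 1 minus casein array 2 was −0.55 for Psma3l and −0.20 for Psma1, about as wide as their differences between leucine and casein. Without casein array 1 the Psma1 difference was 0.11, and without casein array 2 it was 0.31. Psma5 and Psma6 varied mostly inside the diets: Psma5 read 6.37 and 5.54 on the casein arrays.

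The beta subunits of the core showed no common direction, with 3 of 8 higher, 4 lower and Psmb11 equal for leucine against casein. Psmb1, a structural beta subunit, read 7.87 and 8.03 with casein, 7.85 and 7.86 with dairy, and 7.60 and 7.75 with leucine. Here the leucine arrays were the lowest and the casein arrays the highest. Leucine minus casein was −0.28 ± 0.09 (limma adjusted p = 0.480) and leucine minus dairy −0.18 ± 0.09 (adjusted p = 0.903).

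For dairy against casein the smallest p-values in the core belonged to Psmb2, Psmb3, Psma4 and Psmb4, all with a limma adjusted p of 0.833. Psmb2, a structural beta subunit, read 7.08 and 7.38 with casein and 7.38 and 7.47 with dairy, a difference of 0.20 ± 0.12, or 0.35 without casein array 2. Psmb3 read 7.18 and 6.87 with casein and 6.83 and 6.87 with dairy, a difference of −0.18 ± 0.12. Its dairy arrays lay below both casein arrays, but by less than 0.01 at the nearest pair, and the value was −0.03 without casein array 1 and −0.33 without casein array 2. Psmb4 differed by 0.25 ± 0.23, with its low value of 7.88 on casein array 1 beside 8.44 to 8.55 on the other 5 arrays, and the difference was 0.59 without casein array 2 and −0.08 without casein array 1. Psma4 differed by 0.10 ± 0.09, or 0.19 without casein array 2, and the difference turned to −0.02 after quantile normalization.

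The standard catalytic subunits are the partners that the immune subunits replace. Psmb5, the chymotrypsin-like subunit, read 7.78 and 8.34 with casein, 7.56 and 8.39 with dairy, and 8.26 and 8.36 with leucine. Array 1 of casein and of dairy were low and the other 4 arrays were high, so that the groups overlapped. The difference between leucine and casein was 0.25 ± 0.35, between dairy and casein −0.08 ± 0.35 and between leucine and dairy 0.34 ± 0.35, with limma adjusted p-values of 0.796, 0.976 and 0.903. Without casein array 2 the first was 0.53 and the second 0.20.

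Psmb6, the caspase-like subunit, showed the opposite arrangement, with 6.72 and 6.31 with casein, 6.67 and 6.36 with dairy, and 6.28 and 6.39 with leucine. The leucine mean differed from the casein mean by −0.18 ± 0.18 (limma adjusted p = 0.730), and leucine minus dairy −0.18 ± 0.18 (adjusted p = 0.903). Dairy and casein means differed by −0.0016 ± 0.18, a sign that centring turned. Without casein array 2 the difference of leucine from casein was −0.38 and that of dairy −0.20. A second Psmb6 probe set did not have the same order: it read 5.48 and 5.51 with casein, 5.92 and 5.62 with dairy, and 5.76 and 5.66 with leucine. Psmb7, the trypsin-like subunit, read 8.76 and 8.50 with casein, 8.97 and 8.47 with dairy, and 8.52 and 8.52 with leucine. Its differences were −0.11 ± 0.20 for leucine against casein, 0.09 ± 0.20 for dairy against casein, which turned to −0.03 after quantile normalization, and −0.20 ± 0.20 for leucine against dairy. Without casein array 2 the first was −0.24 and the second −0.04.

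The 6 ATPases of the cap, PSMC1 to PSMC6, form the ring that unfolds substrates. On the probe sets used, Psmc1, Psmc2 and Psmc4 differed by less than 0.1 between the means of any pair of diets. A second Psmc4 set read 8.28 and 8.13 with casein, 8.06 and 8.06 with dairy, and 7.98 and 8.06 with leucine. On that set both leucine arrays lay below both casein arrays. Psmc3 read 7.31 and 7.13 with casein, 7.20 and 7.05 with dairy, and 7.01 and 6.79 with leucine. Both leucine arrays were below all 4 others, and leucine minus casein was −0.32 ± 0.12 (limma adjusted p = 0.531). Psmc6 read 7.84 and 8.10 with casein, 8.12 and 8.12 with dairy, and 8.26 and 8.16 with leucine. Leucine minus casein was 0.24 ± 0.11 (limma adjusted p = 0.593) and dairy minus casein 0.14 ± 0.11 (adjusted p = 0.833). Without casein array 2 these were 0.37 and 0.28. Thus subunits of the same ring lay on opposite sides of 0.

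Of the 11 non-ATPase subunits of the cap, 5 had higher and 6 had lower means with leucine than with casein. Psmd14, the deubiquitinase that removes the chain before degradation, read 7.04 and 7.10 with casein, 7.03 and 7.13 with dairy, and 7.25 and 7.46 with leucine. The leucine arrays were apart from all 4 others. The difference of leucine from casein was 0.29 ± 0.10 (limma adjusted p = 0.491), and leucine minus dairy 0.27 ± 0.10 (adjusted p = 0.872). It was the single subunit with an unadjusted p under 0.05 in more than 1 comparison, although both rest on the same leucine arrays.

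Psmd1, the large scaffold of the base, read 8.89 and 8.81 with casein, 8.99 and 8.93 with dairy, and 8.95 and 9.05 with leucine. Its difference was 0.15 ± 0.07 for leucine against casein (limma adjusted p = 0.618) and 0.11 ± 0.07 for dairy against casein (adjusted p = 0.833), the latter turning to −0.01 after quantile normalization. Psmd8 and Psmd7 had the lowest p-values among the cap genes for leucine against dairy after Psmd14 and Psmc3, with −0.31 ± 0.19 and −0.16 ± 0.11 (limma adjusted p = 0.903 for each). The arrays of these diets overlapped for both genes. Without dairy array 1 the values were −0.05 and −0.04, and without dairy array 2 they were −0.57 and −0.27. Dairy minus casein was 0.07 ± 0.09 for Psmd11 and 0.09 ± 0.11 for Psmd7, and quantile normalization turned the sign of both, as leaving out casein array 2 did for Psmd11 (−0.02). Psmd2, the other large scaffold, read 9.63 and 8.94 with casein, 9.86 and 9.10 with dairy, and 9.23 and 9.07 with leucine, so its spread inside the casein and dairy groups was larger than any difference between diets.

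Psmd4, a ubiquitin receptor of the cap, read 7.50 and 6.99 with casein, 7.38 and 6.98 with dairy, and 6.71 and 6.96 with leucine. Both leucine arrays lay below the other 4, although the nearest pair lay only 0.02 apart. Its difference was −0.42 ± 0.24 for leucine against casein (limma adjusted p = 0.651), from −0.16 without casein array 1 to −0.67 without casein array 2, and −0.35 ± 0.24 for leucine against dairy (adjusted p = 0.903). Psmd13, a subunit of the lid, had its spread inside the diets, with 6.83 and 6.39 with casein, 6.87 and 6.26 with dairy, and 6.50 and 6.49 with leucine. Psmd6, also of the lid, differed by 0.12 ± 0.09 for leucine against casein, or 0.20 without casein array 2. The assembly chaperones Psmd5, Psmd9 and Psmd10 differed by at most 0.07 between leucine and casein. Psme3, which forms the nuclear activator PA28-gamma, differed by 0.05 for that comparison, which quantile normalization turned to −0.04, and Psme4, the activator PA200, by 0.28. Psme4 read 9.22 and 9.33 with casein, 9.45 and 9.28 with dairy, and 9.73 and 9.37 with leucine, so that its spread between the leucine arrays, 0.36, was larger than its difference.

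The immune subunits gave lower means with leucine than with casein for 4 of 5 genes on the probe sets used, none of them past the test. Psmb8, which encodes the immune counterpart of PSMB5, read 4.64 and 4.93 with casein, 4.88 and 4.43 with dairy, and 4.12 and 4.30 with leucine. The leucine arrays were below all 4 others, while casein and dairy overlapped. Leucine minus casein was −0.58 ± 0.20, a 95% interval of −1.11 to −0.04 (limma adjusted p = 0.489). Leaving out single arrays moved that difference between −0.72 and −0.43. Leucine minus dairy was −0.45 ± 0.20 (limma adjusted p = 0.903), and dairy minus casein −0.13 ± 0.20 (adjusted p = 0.878), which was 0.02 without casein array 2.

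Psmb9, the immune counterpart of PSMB6, was the dimmest of the 5. It read 3.49 and 4.13 with casein, 3.38 and 3.51 with dairy, and 3.34 and 3.29 with leucine. Casein array 2 stood above the rest, and the other 5 arrays lay close to the median of all probe sets, which was 3.46 to 3.56 across the arrays. Relative to casein, the leucine mean differed by −0.49 ± 0.23 (limma adjusted p = 0.597), and it was −0.17 without casein array 2 and −0.81 without casein array 1. Dairy minus casein was −0.37 ± 0.23 (adjusted p = 0.833), and −0.05 without casein array 2. Leucine minus dairy was −0.13 ± 0.23.

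Psmb10, the immune counterpart of PSMB7, varied least of the 5 immune genes over the 6 arrays, by 0.16. It read 4.23 and 4.34 with casein, 4.18 and 4.19 with dairy, and 4.18 and 4.19 with leucine. Both casein arrays were above the other 4, but the difference was only −0.10 ± 0.07 for leucine and −0.10 ± 0.07 for dairy against casein (limma adjusted p = 0.676 and 0.833), and −0.04 for each without casein array 2. The dairy and leucine means differed by −0.00042 ± 0.066, and the sign of that value turned under both scalings.

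The subunits of the PA28 activator did not follow the catalytic ones. Psme1 read 7.30 and 8.42 with casein, 7.73 and 8.27 with dairy, and 8.28 and 8.16 with leucine. Its lowest and its highest value were both casein arrays. Leucine minus casein was 0.36 ± 0.43 (limma adjusted p = 0.768), and it turned from 0.91 without casein array 2 to −0.20 without casein array 1. Psme2, its partner in the ring, read 8.03 and 8.00 with casein, 8.09 and 8.03 with dairy, and 8.03 and 7.90 with leucine. All 6 values lay within 0.19 of each other, and the diets overlapped. Its difference was −0.05 ± 0.07 for leucine against casein, which centring turned to 0.01, and 0.05 ± 0.07 for dairy against casein, which quantile normalization turned to −0.07. A second Psme2 probe set read 7.31 and 7.40 with casein, 7.46 and 7.34 with dairy, and 7.30 and 7.52 with leucine. With the 2 sets averaged, leucine minus casein was 0.006.

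**Figure D3:**
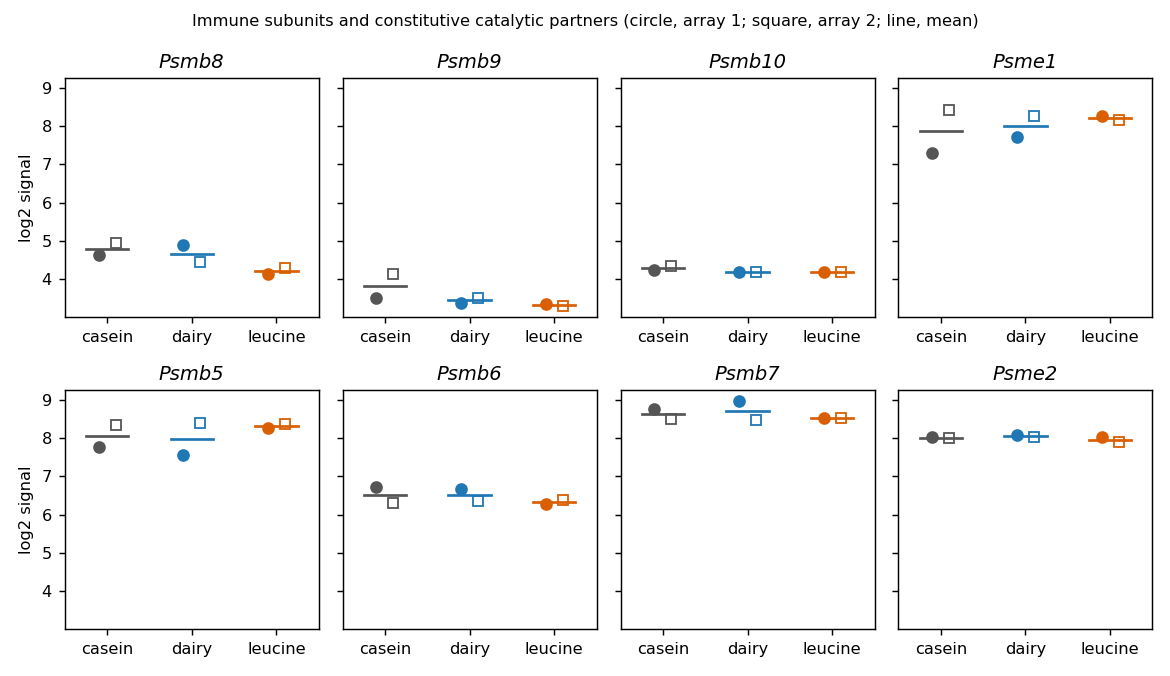
Log2 level (vertical axis) of the 5 immune subunits and of Psmb5, Psmb6 and Psmb7 by diet, with a circle for array 1, a square for array 2 and a line at the mean. For Psmb8 both leucine arrays, 4.12 and 4.30, lie below the other 4, and for Psme1 the casein arrays, 7.30 and 8.42, span all other values.

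Set against its standard partner on the same array, Psmb8 relative to Psmb5 was lower with leucine than with casein by a log2 difference of −0.83 and lower than with dairy by −0.78. In both cases the arrays did not overlap, while dairy minus casein was −0.04. As deviations from the mean over all arrays, this log2 ratio was 0.42 and 0.16 with casein and 0.88 and −0.39 with dairy. With leucine it was −0.57 and −0.50. The dairy arrays thus lay on either side of both casein arrays, and the lower dairy array was close to the leucine arrays. The difference between leucine and dairy therefore rested mostly on dairy array 1. The same difference between leucine and casein was −0.31 for Psmb9 relative to Psmb6 and 0.01 for Psmb10 relative to Psmb7, both with overlapping arrays. Psmb5 itself had its lowest values on casein array 1 and dairy array 1. These ratios were described and not tested.

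Casein array 2 carried the highest value for 4 of the 5 immune subunits, Psmb8, Psmb9, Psmb10 and Psme1. Over all genes, 22.5% were highest on that array, and so were 3 of the 15 core and 2 of the 22 regulatory subunits. The same array was the highest for 8 of 12 macrophage markers, 13 of 22 interferon signalling genes, 7 of 15 class I genes and 12 of 12 hepatocyte markers. The summed log2 level of the macrophage markers was 51.7 and 64.5 on the casein arrays, 59.4 and 58.1 on the dairy arrays, and 51.6 and 50.1 on the leucine arrays. All 12 macrophage markers had lower means with leucine than with casein (median −0.57, or −0.13 without casein array 2), and 8 of the 12 lay above the array median on all arrays. The part of these cells in the Psmb8 and Psmb9 values was not tested. The summed level of 12 lymphocyte markers moved between 34.5 and 36.5, and 6 of the 12 were highest on casein array 2. As 8 of the 12 lay below the array median on all arrays, this sum says little about lymphocytes.

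**Figure D4:**
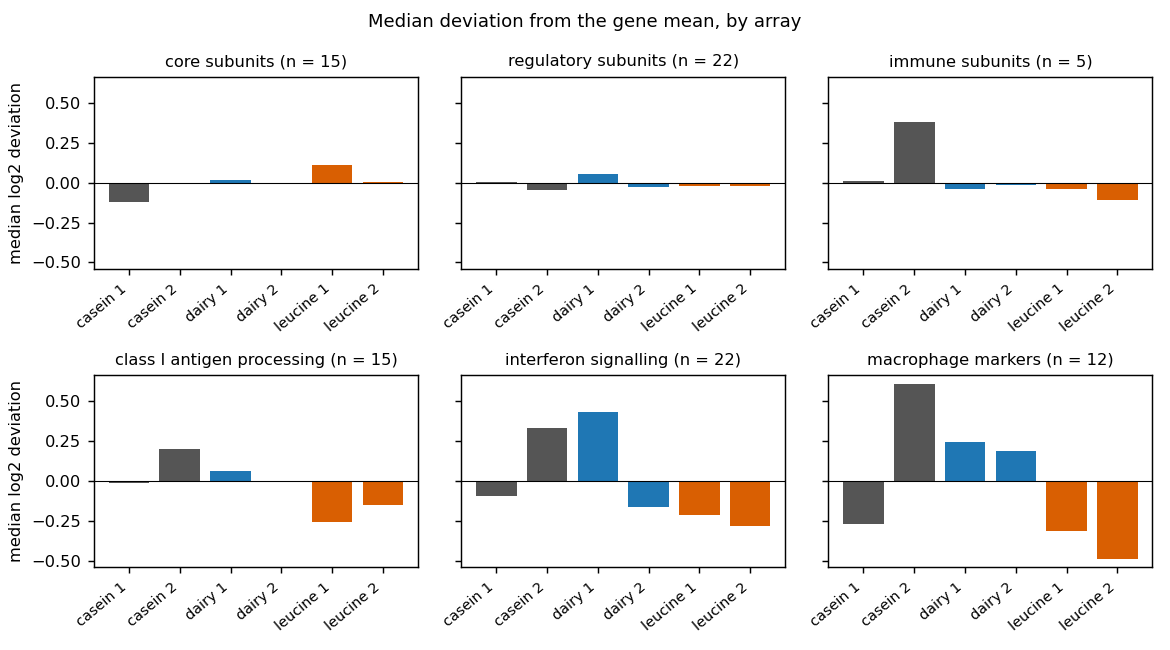
Median deviation of each gene group from its gene means over the 6 arrays (vertical axis, log2) on each array, with bars coloured by diet. The immune subunits reach 0.38 on casein array 2, the interferon signalling genes 0.34 there and 0.43 on dairy array 1, and the macrophage markers 0.61 on casein array 2, while the leucine arrays lie below 0 in each of these groups.

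Separation of arrays was counted on the deposited scale without any model, as the number of genes for which both arrays of a diet lay on the same side of both arrays of the other. For leucine against casein, 9 subunits were apart and higher with leucine (21.4%, beside 15.9% of all genes) and 9 were apart and lower (21.4%, beside 15.6%). The higher ones were Psma1, Psma2, Psma3l, Psma4, Psmc6, Psmd1, Psmd12, Psmd14 and Psme4. The lower ones were Psmb1, Psmb3, Psmb8, Psmb9, Psmb10, Psmc3, Psmd3, Psmd4 and Psmd8. The alpha ring contributed 4 of the higher and none of the lower genes, and the immune class 3 of the lower and none of the higher.

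The dairy diet separated fewer subunits from casein. In that comparison 2 were apart and higher, Psmc6 and Psmd1 (4.76%, beside 11.5% of all genes), and 3 were apart and lower, Psmb1, Psmb3 and Psmb10 (7.14%, beside 11.7%). For leucine against dairy 5 were apart and higher (11.9%, beside 13.4%), namely Psma1, Psma3l, Psma4, Psmc6 and Psmd14. In the lower direction 7 were apart (16.7%, beside 14.9%), namely Psmb1, Psmb8, Psmb9, Psmc3, Psmd3, Psmd4 and Psmd11. The comparisons with leucine share its 2 arrays, and those with casein share the casein arrays, so these lists are not independent.

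The largest differences among the subunits lay between arrays of the same diet. Array 1 and array 2 differed by a median of 0.19 for casein, 0.099 for dairy and 0.10 for leucine, and by over 0.3 for 13, 13 and 1 of the 42 subunits. Over all 14506 genes the medians were 0.16, 0.12 and 0.12, and 4421, 3028 and 2618 genes differed by over 0.3. On array 1 of both casein and dairy, Psmd2, Psma5, Psmd13 and Psmd4 were higher than on array 2. For Psmd2 the differences were 0.70 and 0.76, for Psma5 0.83 and 0.39, for Psmd13 0.44 and 0.61 and for Psmd4 0.51 and 0.40. Psme1 and Psmb5 were lower on array 1 in both diets, by −1.12 and −0.54 for Psme1 and −0.56 and −0.83 for Psmb5.

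Across the 42 subunits, the difference between the casein arrays and that between the dairy arrays correlated with a Pearson r of 0.72 and a Spearman rho of 0.69, with the same sign for 27. Across all 14506 genes r was 0.087 and rho 0.19. With the leucine arrays the subunits gave r of 0.096 (casein) and 0.031 (dairy), and rho of 0.14 and 0.033. These are correlations across genes measured on the same 4 arrays, and genes are not independent replicates. The labels give no batch, date or animal that ties array 1 of the diets together, and what sets this pattern was not tested.

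**Figure D5:**
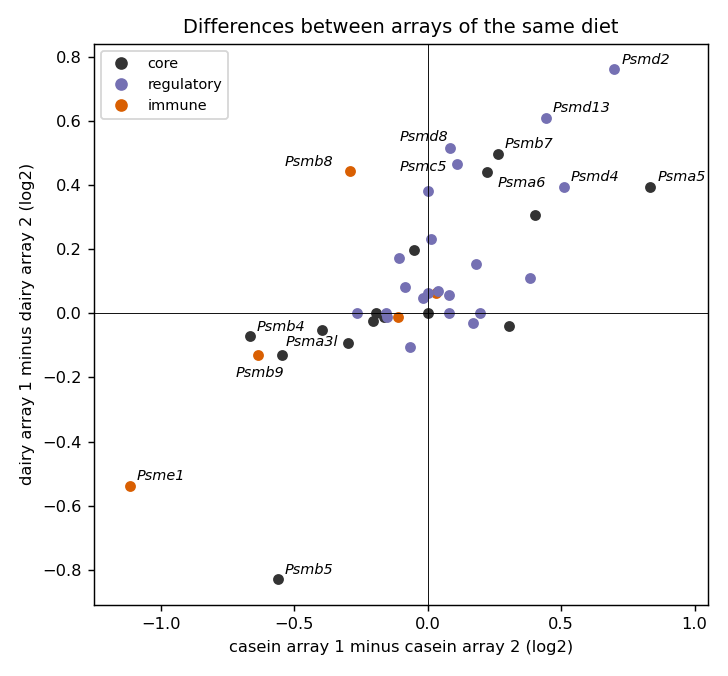
Array 1 minus array 2 of the dairy group (vertical axis, log2) against the same for the casein group (horizontal axis, log2), with 1 point per subunit coloured by class. Psmd2 and Psmd13 lie at the upper right and Psme1 and Psmb5 at the lower left.

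The wider pathway was described with 6 lists of 104 symbols, of which 83 were measured. With limma, 0 of the 83 passed an adjusted p of 0.05 in any comparison. At an unadjusted p under 0.05 the assembly list had 3 genes of 18, the ubiquitin list 3 of 10, the class I list 3 of 15 and the interferon list 2 of 22 for leucine against casein, and the NFE2L1 and muscle ligase lists had none, beside 9.61% of all genes. For dairy against casein the ubiquitin and muscle ligase lists had 1 each, and for leucine against dairy the class I and interferon lists had 2 each, with none in the other lists, beside 4.8% and 5.7% of all genes. Among proteasome assembly factors and partners, 12 of 18 had higher means with leucine than with casein (median 0.05). Akirin2, which carries proteasomes into the nucleus, read 7.41 and 7.59 with casein, 7.72 and 7.71 with dairy, and 7.89 and 7.86 with leucine, so the 3 diets did not overlap. With leucine the mean differed from casein by 0.38 ± 0.08 (limma adjusted p = 0.375), and dairy minus casein 0.21 ± 0.08 (adjusted p = 0.833). Ubqln2, a shuttle between ubiquitin chains and the proteasome, had the smallest p in the lower direction, with −0.34 ± 0.13 (adjusted p = 0.542). For dairy against casein that gene was the assembly chaperone Psmg2, with −0.18 ± 0.12 (adjusted p = 0.833).

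Nfe2l1 encodes the transcription factor that raises proteasome genes when proteasome activity is short. It read 9.48 and 9.48 with casein, 9.64 and 9.57 with dairy, and 9.50 and 9.21 with leucine. Leucine minus casein was −0.13 ± 0.12, dairy minus casein 0.12 ± 0.12 and leucine minus dairy −0.25 ± 0.12, with limma adjusted p-values of 0.705, 0.834 and 0.903. In its list of 8, the median was −0.11 for leucine against casein. Ngly1, the glycanase that processes NFE2L1, differed by 0.36 ± 0.14 and Maff, a small MAF partner, by −0.38 ± 0.19 in that comparison (limma adjusted p = 0.556 and 0.635), and without casein array 2 the Maff value was −0.15. Mafk was the lowest p in the lower direction for dairy against casein, with −0.40 ± 0.16 (−0.18 without casein array 2), and Mafg in the higher direction for leucine against dairy, with 0.23 ± 0.10.

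Of the 10 measured ubiquitin genes and ubiquitin-loading enzymes, 9 had higher means with leucine than with casein, with a median of 0.33, which became 0.18 if casein array 1 was left out and 0.47 if casein array 2 was. Ube2l3, a conjugating enzyme, read 8.15 and 8.37 with casein, 8.49 and 8.65 with dairy, and 8.71 and 8.65 with leucine. Casein was the lowest diet on both arrays. The leucine mean differed from the casein mean by 0.42 ± 0.11 (limma adjusted p = 0.414) and dairy minus casein 0.31 ± 0.11 (adjusted p = 0.833). For leucine against dairy the smallest p was that of Ube2b, a conjugating enzyme, with 0.23 ± 0.10 (adjusted p = 0.903). Ube2n was the exception, with −0.02 ± 0.17 for leucine against casein, a sign that centring turned (0.11 without casein array 2), and −0.18 ± 0.17 for leucine against dairy.

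The ligases known from muscle wasting showed no common direction, with 5 of 10 higher for leucine against casein. Fbxo32, which encodes atrogin-1, read 8.97 and 9.69 with casein, 9.15 and 9.35 with dairy, and 9.74 and 9.61 with leucine. Leucine minus casein was 0.34 ± 0.26 (limma adjusted p = 0.683), but −0.01 without casein array 1 and 0.70 without casein array 2. Trim63, which encodes MuRF1, read 8.60 and 9.66 with casein, 9.13 and 8.98 with dairy, and 9.19 and 8.67 with leucine, and its difference was −0.20 ± 0.41 (limma adjusted p = 0.865), but 0.33 without casein array 2 and −0.73 without casein array 1. For leucine against dairy Fbxo32 had the smallest p in the higher direction, with 0.42 ± 0.26, and Nedd4 in the lower, with −0.27 ± 0.27. For Fbxo32 and Trim63 the casein arrays spanned nearly all other values. Traf6 had the smallest p in the higher direction against casein, with 0.18 ± 0.10 for leucine and 0.26 ± 0.10 for dairy, and Trim32 the smallest in the lower direction, with −0.23 ± 0.15 and −0.10 ± 0.15, or −0.39 and −0.26 without casein array 2.

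Class I antigen processing, the step that immunoproteasomes feed, had lower means with leucine than with casein for 11 of 15 genes, with a median of −0.41, or −0.19 without casein array 2. Tapbp, which encodes tapasin of the peptide-loading complex, read 5.72 and 5.81 with casein, 5.86 and 5.72 with dairy, and 5.35 and 5.19 with leucine. The leucine arrays were below all 4 others. The difference of leucine from casein was −0.49 ± 0.09 (limma adjusted p = 0.353), and leucine minus dairy −0.52 ± 0.09 (adjusted p = 0.514). B2m, the light chain of class I molecules, differed by −0.70 ± 0.36 between leucine and casein, and by −0.20 without casein array 2. Tap1, the peptide transporter that shares its promoter region with Psmb9, read 4.68 and 5.88 with casein, 4.68 and 4.46 with dairy, and 4.33 and 4.24 with leucine. Its difference was −0.99 ± 0.42 (adjusted p = 0.564), or −0.39 without casein array 2. As with Psmb9, its highest value was on casein array 2. Erap1, a peptide-trimming enzyme, went the other way, with 0.40 ± 0.23. Canx had the smallest p in the higher direction for dairy against casein, with 0.08 ± 0.06, which turned to −0.04 after quantile normalization.

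Of the 22 measured interferon signalling genes, 20 had lower means with leucine than with casein, with a median of −0.35, or −0.18 without casein array 2. For leucine against dairy 18 were lower, with a median of −0.35. The dairy arrays differed here: the median deviation of these genes from their means was 0.43 on dairy array 1 and −0.16 on dairy array 2. On the leucine arrays it was −0.21 and −0.28. Isg15, an interferon-induced ubiquitin-like protein, read 4.09 and 4.33 with casein, 4.25 and 3.87 with dairy, and 3.17 and 3.18 with leucine. The difference of leucine from casein was −1.03 ± 0.16 (limma adjusted p = 0.353), and leucine minus dairy −0.88 ± 0.16 (adjusted p = 0.514). Irf1, which encodes a factor that induces immunoproteasome genes, read 4.43 and 7.20 with casein, 4.88 and 4.76 with dairy, and 4.24 and 4.18 with leucine. Its difference of −1.60 ± 0.94 between leucine and casein (adjusted p = 0.653) was −0.22 without casein array 2. Irf2 had the smallest p in the higher direction, with 0.08 ± 0.13, or 0.24 without casein array 2. Socs1, an inhibitor of cytokine signalling, had the smallest p in the lower direction for dairy against casein, with −0.30 ± 0.12, and Oas1a in the higher direction, with 0.12 ± 0.07. Irf8 had it in the higher direction for leucine against dairy, with 0.13 ± 0.17. Oas1a lay below the array median on every array, and Irf8 on every array but casein array 2. The lower interferon and class I means stood beside lower markers of several other cell types in the same arrays. For leucine against casein, 12 of 12 macrophage, 8 of 8 fibroblast and 6 of 7 adipocyte markers had lower means, and for leucine against dairy 12 of 12, 8 of 8 and 7 of 7, with 8 of 8 endothelial markers. Against casein, however, 5 of 8 endothelial markers were higher. Fast-fibre markers were lower for 10 of 12 against casein and 11 of 12 against dairy, and slow-fibre markers higher for 9 of 9 and 8 of 9. Against casein the slow-fibre median was 2.18, but −0.05 without casein array 2 and 4.34 without casein array 1. Hepatocyte markers were lower for 12 of 12 against casein and higher for 10 of 12 against dairy. Their median against casein was −1.22, or −0.40 without casein array 2. The summed log2 level of the adipocyte markers was 33.2 and 38.4 with casein, 37.6 and 30.4 with dairy, and 29.6 and 28.9 with leucine. The part of these cells was not tested.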

How the data were processed

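The authors deposited a table of log2 signals for transcript clusters. The submitters' processing notes name Affymetrix Expression Console as the tool. Its version, background correction, normalization and summarization are not given in the sources used here. Of 29214 clusters, 15310 had a single gene in the platform annotation. The cluster with the highest mean was kept per symbol, with no filter on dim genes, which gave 14506 genes. A cluster shared by Psma3l and Psma3 was left out. One linear model with diet as its term was fitted to all 6 arrays with limma 3.58.1 in R 4.3.3, with Benjamini-Hochberg adjustment over all genes and a threshold of 0.05. The fit was tested on simulated data. The number of arrays limits the precision. The members and lists were chosen with earlier results of these data known. Genes are named by rule: the immune subunits and catalytic partners always, the 4 smallest p-values of the core and of the regulatory class per comparison, and from each pathway list the smallest p in each direction and 7 fixed genes. Other members were named after their values were seen. Promoters came from RefSeq (GRCr8), since the files name no genome build. Alternatives covered scaling, dim genes, probe set choice, model settings, the replicate number as a block, and each array left out.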

Additional observations from a re-analysis of the deposited data

How the results depend on the processing

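The number of subunits past the threshold stayed at 0 under every alternative run, with a lowest limma adjusted p of 0.116 for leucine against casein, 0.162 for dairy against casein and 0.483 for leucine against dairy. The number of genes of the pathway lists past it stayed at 0 too. Without a given array its diet has 1 array, assumed to vary like the other diets. The class medians moved with scaling. After quantile normalization they were 0.0067 (core) and −0.069 (regulatory) for leucine against casein, −0.023 and −0.072 for dairy against casein, and 0.0092 (regulatory) for leucine against dairy. After centring they were 0.043 (regulatory, leucine against casein) and 0.082 (regulatory, dairy against casein), and −0.033 (immune, leucine against casein). Leaving out single arrays gave 0.0 to 0.19 (core), −0.020 to 0.041 (regulatory) and −0.20 to −0.063 (immune) for leucine against casein. For dairy against casein it gave 0.0 to 0.13 (core), −0.022 to 0.10 (regulatory) and −0.27 to 0.018 (immune), and for leucine against dairy −0.061 to 0.034 (regulatory). The cause of these moves was not tested. The replicate numbers did not pair the samples by the check used, since differences between arrays 1 and 2 correlated across genes with r of 0.0865 (casein with dairy), 0.179 (casein with leucine) and 0.0536 (dairy with leucine). Spearman's rho was 0.19, 0.12 and 0.12 in that order, so the outcome rests on Pearson's r. With the replicate number as a block, 0 subunits and 0 pathway genes passed, and the lowest adjusted p among the members was 0.402, 0.783 and 0.721 for the 3 comparisons in the order above. With 2 arrays per diet, differences under about 0.33 lie inside the 95% interval of the median subunit.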

Other observations

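A probe set shared by Psma3 and Psma3l belonged to no comparison above. It read 8.51 and 8.65 with casein, 9.14 and 8.61 with dairy, and 9.25 and 9.16 with leucine, so both leucine arrays lay above the other 4, as for the probe set of Psma3l alone. Among second probe sets of members, that of Psmd8 read 4.77 on casein array 1 and 3.39 to 3.78 on the other arrays. The second set of Psme3 read 5.70 and 4.68 on the leucine arrays, a wider gap than the 7.92 and 7.71 of the set that was used.

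The genes that only share the start of the symbol varied as follows. Psmc3ip, a partner of PSMC3 known from meiotic recombination, read 4.28 and 3.60 with casein, 4.17 and 3.97 with dairy, and 4.09 and 4.46 with leucine. Psme3ip1, a nuclear partner of PSME3, read 6.73 and 6.64 with casein, 6.73 and 7.04 with dairy, and 6.76 and 6.73 with leucine. Neither passed the limma test in any comparison.

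Fibroblast markers, listed as a check on the other cells of the muscle, had lower means with leucine than with casein for 8 of 8 genes (median −0.71) and lower than with dairy for 8 of 8 (median −1.35). Their summed log2 level was 57.8 and 57.4 with casein, 62.1 and 57.9 with dairy, and 50.5 and 49.9 with leucine, and 0 of the 8 passed an adjusted p of 0.05 in limma, with 5 and 6 at an unadjusted p under 0.05, beside 9.61% and 5.7% of all genes.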
